A study of Saccharomyces cerevisiae with 12 samples.

Results

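The SNZ and SNO genes of budding yeast (Saccharomyces cerevisiae) form a small family with 6 members, SNZ1, SNZ2, SNZ3, SNO1, SNO2 and SNO3. They were taken as the probes that the platform annotation gives to these names, and each member had 1 probe, so the family makes up 6 of the 5594 genes measured. The family was selected on its log2 ratios of ∆zta1 to wild type in both treatments, which were already known, so these ratios are given as a description and nothing is read from the members' results in the fit across all genes. SNO4 (YMR322C) shares the name but belongs to the Hsp31 chaperone family, and was not counted as a member.

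The arrays compared a strain lacking ZTA1 (∆zta1) with its wild type, FY834α, both in exponential growth in rich YPD medium at 30 ºC. ZTA1 encodes zeta-crystallin, a quinone oxidoreductase. Both strains of 3 pairs of cultures were exposed to 10 mM hydrogen peroxide (H2O2) for 30 min. Both strains of 3 pairs were left untreated. The treatments share replicate numbers, and whether same-numbered pairs came from the same starting cultures is not known here. The RNA of each pair was hybridised on 2 two-colour arrays with the dyes exchanged, and every value below is the log2 ratio of ∆zta1 to wild type, which is negative where ∆zta1 has less transcript. Whether the ∆zta1 strain is 1 clone is not given in the sources used here, and no array set a treated culture against an untreated one.

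Snz and Sno proteins are the 2 parts of an enzyme that makes pyridoxal 5′-phosphate, the active form of vitamin B6. Sno is the glutaminase that releases ammonia from glutamine, and Snz is the synthase that builds the ring from that ammonia and sugar phosphates. Each SNZ gene lies beside the SNO gene of the same number and is read in the opposite direction, from a shared upstream region. SNZ1 and SNO1 are known to be induced in stationary phase and in amino acid starvation, where the activator Gcn4 takes part. SNZ2 with SNO2 and SNZ3 with SNO3 are near-identical copies close to chromosome ends, beside genes of thiamine synthesis, and are known to respond to thiamine. Because the copies are so alike, their probes may share signal, and each value of these 4 genes is uncertain to that extent. Their RefSeq accessions were not shared with any other probe.

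In 5 of the 6 pairs of cultures the family hardly differed between ∆zta1 and wild type, and in the sixth, untreated replicate 2, SNZ1 and SNO1 together were severalfold lower in ∆zta1. SNZ1 was 3.85-fold lower and SNO1 3.33-fold lower in that pair. SNZ2, SNZ3 and SNO3 lay between -0.043 and 0.027 on the log2 scale in the same pair, and SNO2 was at -0.13. The result for SNZ1 and SNO1 therefore rests on a single pair of cultures.

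SNZ1 (YMR096W), the synthase gene of the inducible couple, had log2 ratios of 0.12, 0.028 and 0.040 in the 3 H2O2 pairs. In the 3 untreated pairs it had 0.095, -1.94 and 0.033. Only untreated replicate 2 was low, and the other 5 ratios lay close together just above 0. The means were 0.064 ± 0.052 under H2O2 and -0.61 ± 1.16 in untreated cells (SD, n = 3 pairs each), and the SD of the untreated pairs exceeded their mean in size. Without untreated replicate 2 the untreated mean was 0.064.

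SNO1 (YMR095C), the glutaminase gene beside it, had log2 ratios of 0.048, -0.14 and -0.038 in the H2O2 pairs. In the untreated pairs it had 0.079, -1.74 and -0.016. Its only strongly low value came from the same pair as that of SNZ1. The means were -0.042 ± 0.093 under H2O2 and -0.56 ± 1.02 in untreated cells (SD, n = 3 pairs each). Without untreated replicate 2 the untreated mean was 0.032.

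Both arrays of untreated replicate 2 gave the low values. SNZ1 stood at -1.98 where ∆zta1 carried Cy5 and at -1.91 where it carried Cy3. For SNO1 these values were -1.88 and -1.59. The low ratio was therefore present in either dye orientation, on separate arrays of the same RNA. These 2 arrays share the cultures and the RNA extracts, so they do not replicate the difference between the strains.

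**Figure D1:**
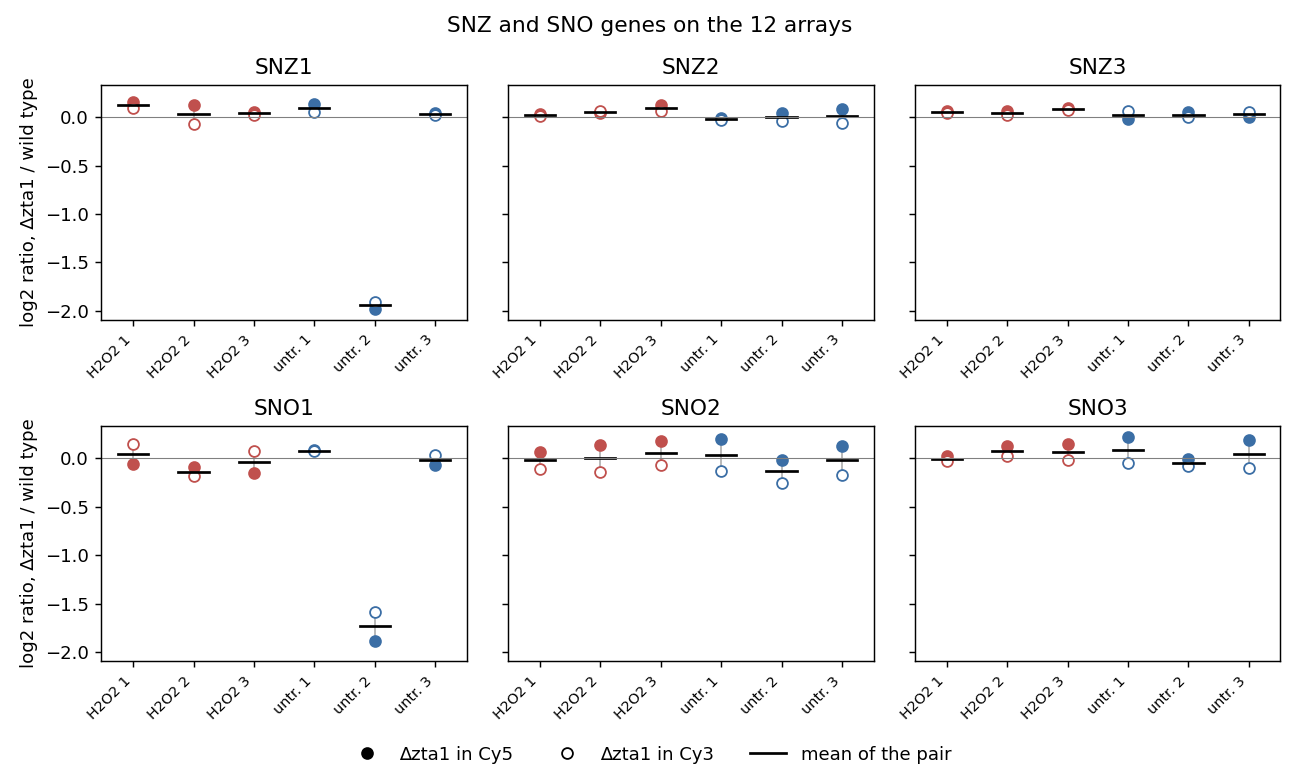
Log2 ratio of ∆zta1 to wild type (vertical axis) for each of the 6 genes on the 12 arrays, by pair of cultures (horizontal axis, untr. for untreated). Filled points have ∆zta1 in Cy5, open points have it in Cy3, and black bars are the means of the pairs. SNZ1 and SNO1 lie near -1.9 and -1.7 in untreated replicate 2 on both arrays, and near 0 elsewhere, while the open and filled points of SNO2 and SNO3 are set apart by the dye.

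Within the pair, the 2 genes stood among the lowest of all those measured. SNZ1 ranked 3rd and SNO1 5th from the bottom among 5594 genes in untreated replicate 2, counting the deleted ZTA1 as the lowest. In that pair 16 genes (0.286%) were more than 2-fold lower in ∆zta1, and 2 of the 6 members were among them. In no other pair was any member 2-fold lower. Outside that pair the lowest rank of a member was that of SNO1 in H2O2 replicate 2, 338th from the bottom at -0.14. SNZ1 lay above the median of all genes in every pair but untreated replicate 2, from the 70.3rd percentile in H2O2 replicate 2 to the 96.2nd in untreated replicate 1.

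Untreated replicate 2 stood apart from the other pairs over the whole array. The SD over all genes was 0.161 in that pair, against 0.111 to 0.127 in the other 5 pairs. It held 20 genes that differed more than 2-fold, against 4 or 5 in each of the others. ZTA1, the check of the labels, was low in all 6 pairs but least so there, with -4.96, -4.56 and -4.58 under H2O2 and -5.84, -4.32 and -5.73 in untreated cells. The 5 alpha-cell markers, genes of the mating type of the strain, also stood apart there, with a median of 0.145, 0 of 5 below 0, and SAG1 and MF(ALPHA)2 at 0.49 and 0.44. Their medians in the other 5 pairs lay between -0.16 and -0.0028. The 7 a-cell markers had a median of -0.027 in that pair and between -0.13 and 0.025 in the others. The part of these shifts in the SNZ1 and SNO1 values was not tested.

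**Figure D2:**
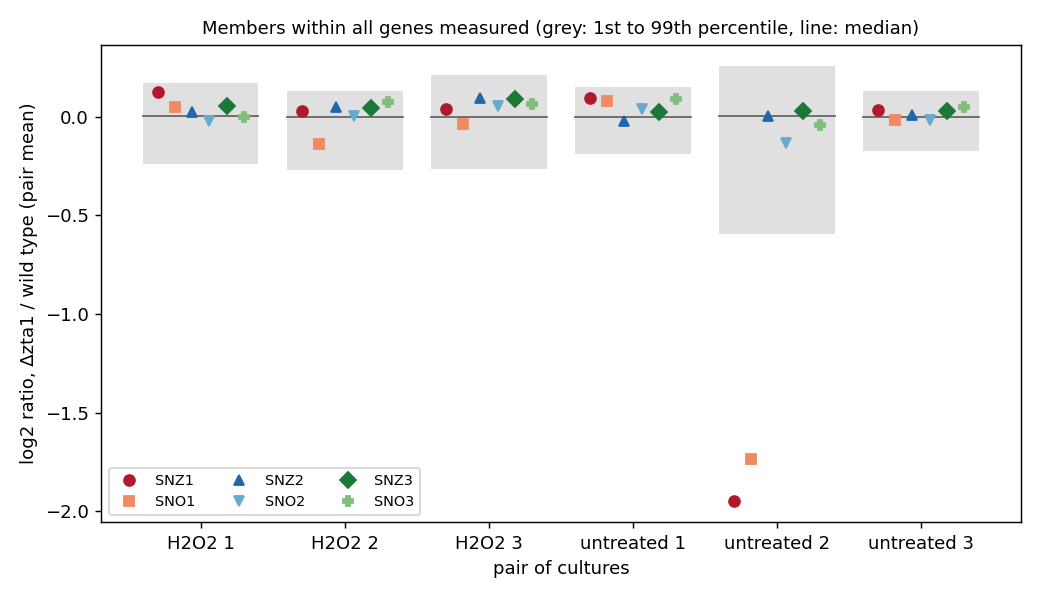
Pair mean of the log2 ratio of ∆zta1 to wild type (vertical axis) for the 6 members in each pair of cultures (horizontal axis). Grey boxes span the 1st to the 99th percentile of the 5594 genes and the line is their median. The members lie inside the box in every pair except for SNZ1 and SNO1 in untreated replicate 2, far below a box that is itself wider than the others.

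SNZ2 (YNL333W), a synthase gene of the duplicated couples, had log2 ratios of 0.023, 0.049 and 0.096 in the H2O2 pairs. In the untreated pairs it had -0.021, 0.0012 and 0.010. All H2O2 values lay above all untreated ones, as they did for 2.66% of all genes. The difference was small, 0.059 ± 0.040 (limma's standard error), with means of 0.056 ± 0.037 under H2O2 and -0.0034 ± 0.016 in untreated cells (SD, n = 3 pairs each).

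SNZ3 (YFL059W), its near-identical copy, had log2 ratios of 0.053, 0.041 and 0.087 in the H2O2 pairs. In the untreated pairs it had 0.021, 0.027 and 0.028. Its H2O2 values also lay above the untreated ones, but as its probe may share signal with that of SNZ2 it is no separate instance. Since these ratios chose the family, nothing is read from the separation in these 2 of 6 members. All 6 ratios were positive, and the highest was 0.087. The means were 0.060 ± 0.024 under H2O2 and 0.025 ± 0.0036 in untreated cells (SD, n = 3 pairs each), a difference of 0.035 ± 0.038 (limma's standard error).

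SNO2 (YNL334C), a glutaminase gene of the duplicated couples, had log2 ratios of -0.021, 0.0011 and 0.054 in the H2O2 pairs. In the untreated pairs it had 0.036, -0.13 and -0.018, and the groups overlapped. SNO3 (YFL060C), its copy, had -0.0039, 0.075 and 0.063 in the H2O2 pairs. In the untreated pairs it had 0.087, -0.043 and 0.048, again with overlap. Both genes had their lowest ratio in untreated replicate 2, at a size far below that of SNO1.

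The near-identical copies gave almost equal ratios. SNZ2 minus SNZ3 averaged -0.017 ± 0.021 and SNO2 minus SNO3 averaged -0.051 ± 0.033 (SD, n = 6 pairs), and SNO2 was the lower one in 6 of 6 pairs. The largest distance between the copies in a single pair was 0.043 for the SNZ genes and 0.091 for the SNO genes. The distance of SNZ1 from the mean of SNZ2 and SNZ3 was -1.96 in untreated replicate 2 and between -0.051 and 0.096 in the other 5 pairs. For SNO1 the distance from the mean of SNO2 and SNO3 was -1.65 in that pair and between -0.18 and 0.061 in the others.

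For the duplicated SNO genes the part of the ratio that followed the dye was larger than the part that followed the strain. SNO2 averaged 0.12 over the 6 arrays where ∆zta1 carried Cy5, and -0.15 over the 6 where it carried Cy3. For SNO3 these averages were 0.12 and -0.043. The dye part of a pair, its Cy5 array minus its Cy3 array divided by 2, was 0.13 ± 0.029 for SNO2 and 0.080 ± 0.051 for SNO3 (SD, n = 6 pairs), and it was positive in 6 of 6 pairs for either gene. SNZ3 had a dye part of -0.0010 ± 0.027, those of SNZ1 and SNZ2 were 0.027 and 0.026, and that of SNO1 was -0.061 ± 0.074. The mean of the 2 arrays cancels this effect.

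Across the 12 arrays the correlation of SNO2 with SNO3 was 0.92, given as a description because the arrays share the dye effect. Within the Cy5 orientation of ∆zta1 it was 0.91 over 6 arrays, and within the Cy3 orientation 0.60 over 6. For SNZ2 with SNZ3 the value over 12 arrays was 0.34. For SNZ1 with SNO1 it was 0.99, and 0.31 without the arrays of untreated replicate 2.

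In limma's fit across all 5594 genes, 0 of the 6 members were called in any of the 3 comparisons at a Benjamini-Hochberg adjusted p under 0.05. Under H2O2, 12 genes were called (0.215%). In untreated cells 11 genes were called (0.197%). For the difference between the treatments 0 genes were called (0%), with 71 genes at an unadjusted p under 0.05. Since these ratios chose the family, nothing is read from the members' counts.

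The median of the 6 members was 0.050 under H2O2, with 5 of 6 above 0, and -0.021 in untreated cells, with 2 of 6 above 0. The medians of all genes were -0.0023 under H2O2 and 0.00052 in untreated cells. Without untreated replicate 2 the untreated median of the members turned positive, to 0.028. The difference of H2O2 minus untreated was 0.67 ± 0.46 for SNZ1 and 0.52 ± 0.41 for SNO1 (limma's standard error), and between 0.014 and 0.059 for the other 4 members. Without untreated replicate 2 it was -0.00044 for SNZ1 and -0.074 for SNO1, so the direction turned for both. It also turned for SNO3, to -0.023 against 0.014 with all pairs, and was 0.0026 for SNO2, against 0.050 with all pairs. The table holds ratios and no intensities, so it does not show how strongly a gene was expressed in either strain, nor whether a ratio near 0 came from a probe with signal.

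The genes around each couple give the setting of these ratios. On chromosome XIII, SNO1 and SNZ1 are flanked by UTP15 and CTF13 on one side and by MTG1 and ATP25 on the other. Their ratios lay between -0.095 and 0.060 in untreated replicate 2 and between -0.10 and 0.083 over all 6 pairs, so the low values there concerned SNZ1 and SNO1 and none of the 4 genes beside them. CTF13, a kinetochore protein, was lowest of the 4 in that pair.

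On chromosomes XIV and VI the duplicated couples sit in the same order of genes, each between a DDI gene, for cyanamide hydratase, and a THI gene of thiamine precursor synthesis. THI12 (YNL332W), next to SNZ2, had a mean ratio of -0.031 ± 0.053 under H2O2 and -0.018 ± 0.018 in untreated cells (SD, n = 3 pairs each). THI5 (YFL058W), next to SNZ3, had -0.045 ± 0.014 under H2O2 and -0.030 ± 0.012 in untreated cells, negative in 6 of 6 pairs but small. The DDI gene beside SNO2 (YNL335W) ranged from -0.19 to 0.024 and the one beside SNO3 (YFL061W) from -0.11 to 0.070.

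Beyond the DDI genes lie members of the COS family of membrane proteins. COS1 (YNL336W), the second gene from SNO2, was lower in ∆zta1 than in wild type among the H2O2-treated cultures (mean -0.40 ± 0.066, SD over 3 pairs, adjusted p = 0.025 in limma's fit), and stood at -0.31 ± 0.15 in untreated cells, where it did not pass (adjusted p = 0.12). The difference of H2O2 minus untreated was -0.090 ± 0.075 (limma's standard error) and did not pass. The H2O2 call of COS1 ended in 4 of the 6 fits that left out 1 pair, namely any H2O2 pair or untreated replicate 3 (largest adjusted p = 0.24). COS4 (YFL062W), the second gene from SNO3, was below 0 in 6 of 6 pairs, between -0.25 and -0.060, and did not pass. Of the 12 neighbouring genes, COS1 alone was called in either treatment. AAD14, an aryl-alcohol dehydrogenase gene on the other side of SNZ2, had -0.086 in untreated replicate 2 and between 0.058 and 0.14 in the other pairs. AGP3 (YFL055W), the second gene from SNZ3 on the side of THI5, ranged from -0.071 to 0.0022 over the pairs.

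**Figure D3:**
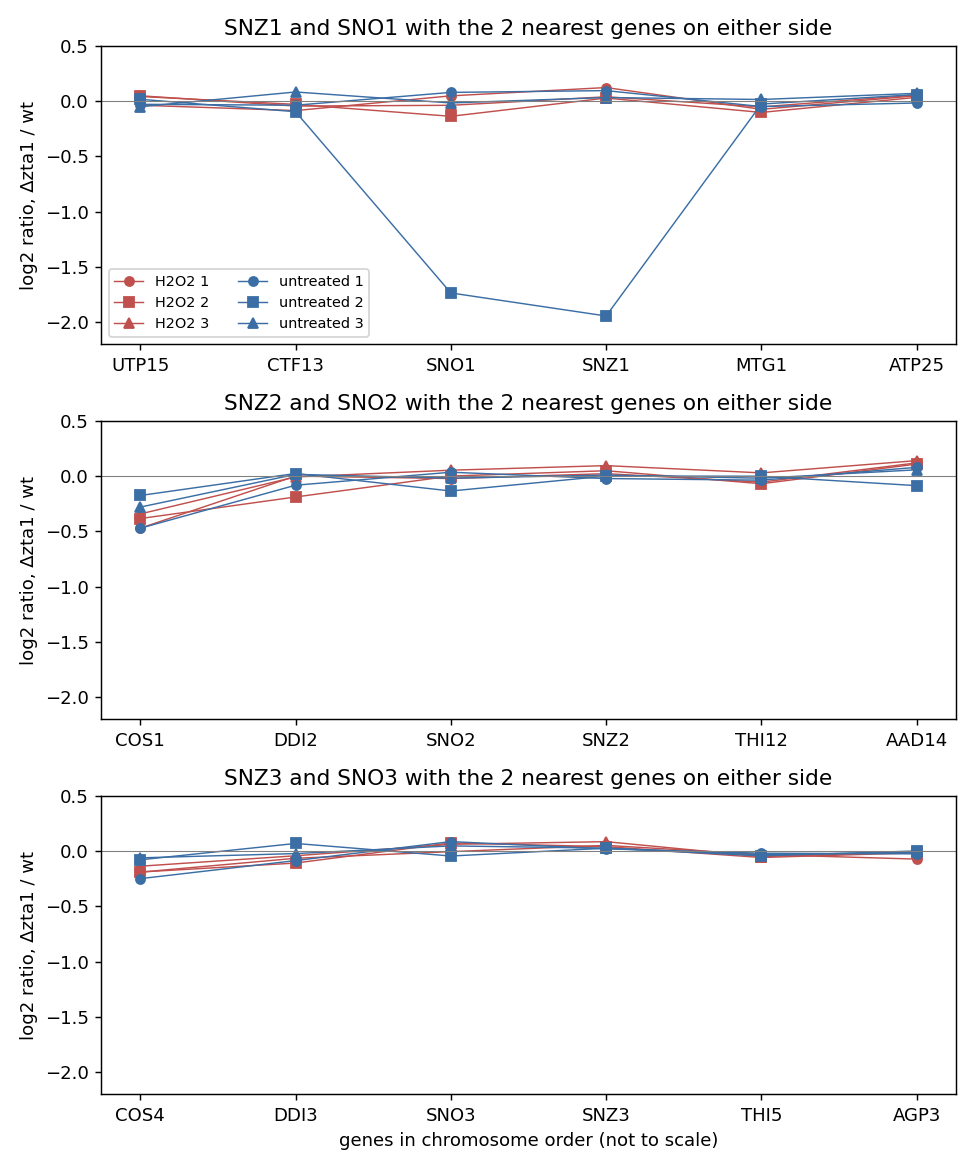
Pair mean of the log2 ratio of ∆zta1 to wild type (vertical axis) for the 3 SNZ-SNO couples and the 2 nearest protein-coding genes on either side, in chromosome order but not to scale (horizontal axis). Red is H2O2, blue is untreated, and the symbols give the replicate. The trough at SNO1 and SNZ1 belongs to untreated replicate 2 and does not extend to CTF13 or MTG1, while the duplicated couples stay near 0 beside lower COS genes.

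The rest of vitamin B6 metabolism was compared through 6 other genes, all of them measured. PDX3, the oxidase that makes pyridoxal phosphate from its precursors, had log2 ratios of 0.067, -0.043 and -0.045 under H2O2 and -0.035, -0.40 and -0.055 in untreated cells. TPN1, the plasma membrane transporter of vitamin B6, had 0.017, -0.0062 and -0.019 under H2O2 and -0.051, -0.39 and 0.051 in untreated cells. Both had their lowest ratio in untreated replicate 2, where they ranked 106th and 107th from the bottom.

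BUD16, the pyridoxal kinase gene, had -0.16 in untreated replicate 2 and between 0.0023 and 0.11 in the other 5 pairs. BUD17, a putative pyridoxal kinase gene, had -0.10 in that pair, YPR127W, a putative pyridoxine oxidase or reductase gene, had -0.084, and YBL036C, whose product belongs to a family that binds pyridoxal phosphate, had 0.022. In that pair the median of the 6 genes was -0.13 and 5 were below 0. In the other 5 pairs the medians lay between -0.0095 and 0.015. None of the 6 was called in any comparison, beside 0.215% of all genes under H2O2 and 0.197% in untreated cells.

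The thiamine genes, with which the duplicated couples are known to be expressed, were compared as a list. Of 20 genes measured, 0 were called in any comparison. The median was 0.0019 under H2O2 and -0.0022 in untreated cells, with 10 above and 10 below 0 in either treatment. In untreated replicate 2 the median was -0.028, and the lowest gene was THI6, for thiamine phosphate synthesis, at -0.16. The highest in that pair was PHO3, a thiamine-repressed acid phosphatase, at 0.27. PHO3 varied most between pairs, with -0.31, -0.13 and 0.052 under H2O2 and -0.15, 0.27 and -0.082 in untreated cells, and its H2O2 mean of -0.13 ± 0.18 (SD, n = 3 pairs) was the lowest of the list. THI11 and THI13, which with THI5 and THI12 are near-identical copies, averaged -0.046 and -0.028 under H2O2 and 0.0018 and 0.090 in untreated cells. THI4, the thiazole synthase gene, averaged 0.064 ± 0.022 under H2O2 and 0.018 ± 0.021 in untreated cells (SD, n = 3 pairs each). The regulators THI2, THI3 and PDC2 stayed between -0.053 and 0.062 in all 6 pairs.

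Genes of amino acid synthesis, many of which Gcn4 activates as it does SNZ1, were low in the same pair as SNZ1 and SNO1. Of 50 listed genes 48 were measured, and in untreated replicate 2 they had a median of -0.50, with 47 of 48 below 0 and 4 of them more than 2-fold lower. The list stood at 0.041, -0.012 and -0.068 in the H2O2 pairs by its median, and at 0.033 and -0.075 in the untreated replicates 1 and 3. GCN4 itself is counted among the 48 genes. Measured as a transcript, although Gcn4 is controlled mostly in translation, it had 0.056, 0.057 and -0.042 under H2O2 and 0.070, -0.34 and 0.0077 in untreated cells. None of the 48 genes was called in any comparison. Over all untreated pairs the median was -0.17, and -0.030 without replicate 2.

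SNZ1 and the arginine gene ARG1, for argininosuccinate synthase, were at a similar level in untreated replicate 2, at -1.94 and -1.90. In the other pairs their levels differed. ARG1 stood at -0.46 in H2O2 replicate 3 and at -0.41 in untreated replicate 3, where SNZ1 stood at 0.040 and 0.033. In H2O2 replicate 1 and untreated replicate 1 ARG1 was higher in ∆zta1, at 0.30 and 0.31, where SNZ1 had 0.12 and 0.095. Both genes had their highest ratios in these pairs. The values here compare levels and ranges, and whether the genes varied together was not tested. Over the 5 pairs without untreated replicate 2, SNZ1 ranged from 0.028 to 0.12, whereas ARG1 ranged from -0.46 to 0.31.

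Enzymes that use pyridoxal phosphate as their cofactor were compared through 34 genes, of which 8 also stand on the list of amino acid genes. The median was -0.026 under H2O2 and -0.077 in untreated cells, and -0.12 in untreated replicate 2, where the 8 shared genes had a median of -0.32 and the 26 others one of -0.062. The lowest in that pair was HIS5, for histidinol-phosphate aminotransferase, at -0.86. GPH1, glycogen phosphorylase, stood at 0.39 in that pair, and at -0.53 and -0.16 in untreated replicates 1 and 3. None of the 34 genes was called.

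Genes known to be induced on the approach to stationary phase, as SNZ1 is, were not low as a list in untreated replicate 2. The 15 measured genes had a median of -0.0085 in that pair, -0.051 over the H2O2 pairs and -0.025 over the untreated pairs. HSP12, a membrane-protecting heat shock protein, stood at -0.24 in untreated replicate 2 and at -0.53 and -0.25 in untreated replicates 1 and 3, so that pair was not its lowest. YGP1, a cell wall glycoprotein, was lower in ∆zta1 than in wild type among the H2O2-treated cultures (mean -0.32 ± 0.13, SD over 3 pairs, adjusted p = 0.034 in limma's fit) and was the only one of the 15 genes called. It stood at -0.19 in untreated cells, and the difference of H2O2 minus untreated, -0.13 ± 0.064 (limma's standard error), did not pass. Its call ended in 4 of the 6 fits that left out 1 pair, namely untreated replicate 1 or 3 or H2O2 replicate 2 or 3 (largest adjusted p = 0.26).

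**Figure D4:**
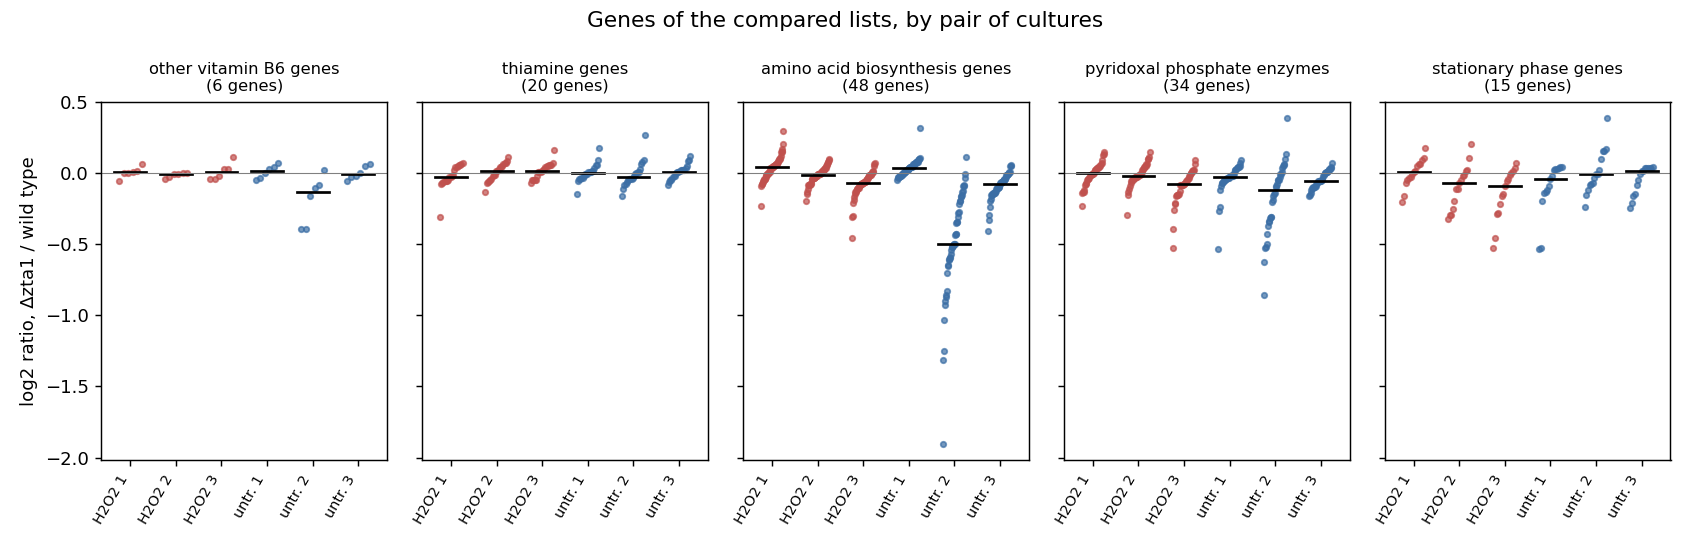
Log2 ratio of ∆zta1 to wild type (vertical axis) for the genes of 5 lists in each pair of cultures (horizontal axis, untr. for untreated), with 1 point per gene and a bar at the median. In untreated replicate 2 the median is -0.50 for the amino acid genes, -0.13 for the other vitamin B6 genes and -0.12 for the pyridoxal phosphate enzymes. The medians of the thiamine and stationary phase genes stay near 0, at -0.028 and -0.0085, although single genes lie further off.

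The genes most like SNZ1 over the 6 pairs were sought by Pearson's r of the pair ratios, among the 20 genes outside the family whose SD over pairs was at least 0.5 times that of SNZ1. The 5 highest were ARG7 (r = 0.990), for ornithine acetyltransferase, ORT1 (0.989), the mitochondrial ornithine carrier, GGC1 (0.978), the mitochondrial guanine nucleotide carrier, TMT1 (0.977), a trans-aconitate methyltransferase, and PCL5 (0.976), a cyclin. In untreated replicate 2 they lay between -1.33 and -1.03, less low than SNZ1. These coefficients are descriptions over 6 points, of which untreated replicate 2 is far from the rest. The SD of SNZ1 was 0.82 over all pairs and 0.043 without that pair. The filter on SD thus favoured genes strongly shifted in that pair, and a high r follows for those shifted the same way. Over the 5 other pairs the coefficients were 0.91, 0.81, 0.94, 0.66 and 0.73 in the same order, for genes already picked over all 6.

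For the mean of SNZ2 and SNZ3, whose SD over pairs was 0.032, 5554 genes could be compared. CAD1 (r = 0.975), a transcription factor of stress tolerance, INO4 (0.972), a regulator of phospholipid synthesis, MTD1 (0.948), a folate enzyme, YDR262W (0.935), uncharacterised, and GEP5 (0.932), a mitochondrial protein, had the highest values. The ratios of these 5 genes lay between -0.10 and 0.096 in all 6 pairs. They are the highest of 5554 coefficients over 6 points, where high values can arise by chance, so nothing is read from them.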

How the data were processed

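The authors deposited 1 log2 ratio per probe and array. The submitters' processing notes name limma alone, without its version. How the ratios were background-corrected, normalised, scaled and directed is not given in the sources used here. The ratios were read as base 2, limma's own scale, and as ∆zta1 over wild type because ZTA1 was negative on all 12 arrays. Column medians lay between -0.017 and 0.017.

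Of 6256 probes 5620 had 1 gene, none had several and 636 had none. All gene IDs were found in RefSeq R64, used for names and gene order only. Probes of a gene were averaged, leaving 5594 genes. Dye-swapped arrays were matched by title, since 1 description of replicate 3 in either treatment gives number 2, and their mean was taken as 1 replicate. limma 3.58.1 (lmFit, eBayes, R 4.3.3) fitted 1 mean per treatment over 6 pairs, with 4 residual degrees of freedom and two-sided tests, called at a Benjamini-Hochberg adjusted p under 0.05. The fit was tested on simulated data with independent noise and 1 spread per gene for all 6 pairs. The simulation held no outlying pair like untreated replicate 2, so it does not cover that feature of these data. The fit's p-values rest on 1 spread per gene, pooled over the 6 pairs around their treatment means and moderated across genes by eBayes.

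The members, the 7 gene lists (2 of them mating type markers), the naming rule and the alternatives were chosen with earlier results of these data known. Named were the members, 2 neighbours per side, the other vitamin B6 genes, the thiamine genes and regulators, GCN4, called list genes, some of the 3 genes at either end of each list, and the 5 most alike genes. The mating type markers, 7 for a cells and 5 for alpha cells, had medians of -0.055 and -0.092 under H2O2 and 0.0084 and 0.046 in untreated cells, with none called. Without untreated replicate 2 the untreated medians were 0.020 and -0.073. Precision is limited by how many pairs of cultures there are, 3 per treatment.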

Additional observations from a re-analysis of the deposited data

How the results depend on the processing

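Each choice was changed in turn in 17 alternatives. Among the alternatives that left out no single pair, the ratios of single members moved by 1 SD or more in 14 of 174 cases. All of them arose when a single dye orientation was used. Several of these alternatives, such as the blocks, robust eBayes and the fits of a treatment alone, leave a member's ratio unchanged by design. The share of moved cases is therefore no measure of stability. The SDs of SNZ1 and SNO1 in untreated cells are set by untreated replicate 2, so for these genes a move below 1 SD says nothing about stability. From the arrays where ∆zta1 carried Cy5, 929 genes were called under H2O2 and 906 in untreated cells. From those where it carried Cy3, the counts were 420 under H2O2 and 562 in untreated cells. The dye effect does not cancel in either set. SNO2 was the only member called in either set, in untreated cells with ∆zta1 in Cy3, where 10.0% of all genes were called. The median of the members under H2O2 was 0.086 in the Cy5 set and 0.014 in the Cy3 set, and in untreated cells it was -0.13 in the Cy3 set.

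When single pairs were left out, 6 to 13 genes were called under H2O2, 9 to 12 in untreated cells and 0 to 3 for the difference. The low counts under H2O2 were 7 without H2O2 replicate 1 and 6 without H2O2 replicate 3, and the 3 calls for the difference came without untreated replicate 2, with no member among them. The median of the members ranged from 0.036 (without H2O2 replicate 3) to 0.050 under H2O2 and from -0.037 to 0.028 in untreated cells, where the positive value came without untreated replicate 2. The direction of a single member's value turned in 6 cases without untreated replicate 2, in 2 without H2O2 replicate 2, and in 1 each without H2O2 replicate 3 and without untreated replicate 1. SNZ1 in untreated cells ranged from -0.96 to 0.064 and SNO1 from -0.88 to 0.032. With the pairs weighted by quality both stood at -0.26.

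Replicate numbers are shared between the treatments. The main fit treated the 6 pairs as independent. The deviations of same-numbered pairs from their treatment means gave r = -0.014, 0.031 and -0.27 across genes. Untreated replicate 2 shifts the untreated means, so these coefficients cannot show whether same-numbered pairs go together. The medians of the amino acid genes under H2O2 and in untreated cells were 0.041 and 0.033 in replicate 1. They were -0.012 and -0.50 in replicate 2, and -0.068 and -0.075 in replicate 3. With the replicate number as a block 10 genes were called under H2O2 and 10 in untreated cells.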
